A study of Homo sapiens with 18 samples.

Results

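Kelly is an established human neuroblastoma cell line that carries an amplified MYCN oncogene. Kelly cells with shAhR-2, a short hairpin RNA directed against AHR, were compared with Kelly cells that carried the pLKO-GFP control vector, over every gene in the count table. The comparison used 6 of the 18 libraries of the study, 3 with shAhR-2 and 3 with the vector. The labels gave each library its group, and this contrast was taken because its fall of AHR was the clearest of the study. The remaining groups, of 3 libraries each, were Kelly cells with the other hairpin, shAhR-1, and BE2C cells, another MYCN-amplified neuroblastoma line, with shAhR-2, with shAhR-1 or with pLKO-GFP. The labels give both hairpins the genotype AhR knockdown and the vector the genotype control. They name no ligand, selection or time after infection, and the hairpin sequences were not used here. The question, as far as the title states it, was the part of the receptor in the dedifferentiation of such tumour cells.

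AHR encodes the aryl hydrocarbon receptor, a transcription factor that waits in the cytosol in a complex with HSP90 chaperones and PTGES3. After it binds a ligand it enters the nucleus, pairs with ARNT and binds short DNA elements, and CYP1A1, CYP1B1, AHRR and TIPARP are its textbook targets. Neuroblastoma arises from sympathetic precursors of the neural crest. Its cells can hold an adrenergic state, driven by HAND2 and GATA3, or a mesenchymal state, and MYCN drives their growth.

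The 6 libraries held 38452042 to 45469353 counts over 39368 listed genes, and 15871 genes passed a filter on low counts. Levels are CPM, the count of a gene over the TMM-scaled library total of mapped counts, and fold changes are log2 values ± SE of shAhR-2 over control. A gene was called, and is said to have risen or fallen, when edgeR's quasi-likelihood test gave an adjusted p (Benjamini-Hochberg, over all genes tested) below 0.05. The correlation of log CPM over genes was 0.993 within the shAhR-2 libraries, 0.991 to 0.992 within the controls and 0.938 to 0.939 between the groups. No label states that replicate libraries were grown apart, so a p-value here rests on the spread among 3 libraries a group, and that spread may be only technical. Mitochondrial transcripts took 15.2 to 15.8% of counts in the shAhR-2 libraries and 14.5 to 15.6% in the controls. Where RNA of another cell type is concerned, fewer cells of a type and less RNA per cell cannot be told apart in such bulk samples.

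AHR itself (chr7:16916359-17346152, plus strand, GRCh38) was low in every Kelly library. It had 0, 4 and 0 counts in shAhR-2 cells, against 4, 26 and 29 counts in control cells. The second shAhR-2 library and the first control therefore held the same number, and the groups overlapped. Pooled over the libraries, the AHR rate in shAhR-2 cells was 0.0652 of the control rate (exact 95% interval 0.0172 to 0.176, counting error only). With counts halved, since both reads of a fragment may have been counted, the interval was 0.00742 to 0.253. Without the second shAhR-2 library that group held no AHR count (upper limit of the rate 0.0927 of control), and leaving out any other library gave 0.0447 to 0.101. In the Kelly libraries labelled shAhR-1 the counts were 18, 11 and 22, within the range of the controls. The comparison was chosen as the one with the clearest fall of AHR, so these values describe the choice and no test of AHR is given.

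MYCN, amplified in this line, and GATA3, an adrenergic marker, were present in all 6 libraries. MYCN (chr2:15940564-15947007, plus strand) had 3114, 3184 and 3143 CPM in shAhR-2 cells, against 4946, 4564 and 4937 CPM in control cells. GATA3, a zinc-finger regulator of sympathetic neurons, had 421, 421 and 423 CPM in shAhR-2 cells, against 517, 475 and 523 CPM in control cells. Both genes were well expressed in every library, as the label of the line asks. Among adrenergic markers given further on, HAND2, TH, DBH and CHGA fell at least 2-fold, while PHOX2A and ISL1 fell slightly. PTPRC, the pan-leukocyte marker, had 0, 0 and 0 counts in shAhR-2 cells, against 2, 0 and 0 counts in control cells, and CDH1 of epithelia had none in either group.

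Genes of the receptor's complex moved in both directions. Of 20 tested genes for partners and cofactors, 11 fell and 7 rose (median −0.173), where 38.2% of all genes tested fell and 37.2% rose, at a median of −0.006. ARNT2, the second ARNT-type partner, which is strong in neural tissue, had 29, 29.5 and 27.3 CPM in shAhR-2 cells, against 69.4, 66.6 and 71.6 CPM in control cells. The shAhR-2 values lay at well under 50% of the controls, with no overlap (−1.28 ± 0.045, adjusted p = 9.48e-31). ARNT fell less (−0.23 ± 0.037; 89.7 ± 2 CPM in shAhR-2 cells and 105 ± 4.03 CPM in control cells), and the chaperones HSP90AA1 (−0.96 ± 0.026) and PTGES3 (−0.69 ± 0.027) fell as well. The coactivator genes NCOA1 (1.27 ± 0.04) and NCOA3 (0.40 ± 0.041) and KLF6 (0.80 ± 0.058), a zinc-finger partner, also rose, while EP300 and CREBBP, the histone acetyltransferases, were not called (−0.03 ± 0.035 for CREBBP).

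Of 30 listed AhR targets 16 had enough counts to be tested, 8 fell and 4 rose (median −0.413, and −0.139 without the first shAhR-2 library). CYP1A1, the classical target, stayed low at 0.15, 0.237 and 0.354 CPM in shAhR-2 cells, against 0.498, 0.197 and 0.266 CPM in control cells, and the groups overlapped (−0.37 ± 0.59, adjusted p = 0.579). TIPARP, an ADP-ribosyltransferase that feeds back on the receptor, had 21.3, 22.9 and 22.9 CPM in shAhR-2 cells, against 21.9, 22.6 and 24.3 CPM in control cells (−0.03 ± 0.066, adjusted p = 0.643), and its groups overlapped as well. AHRR, the receptor's repressor, was not called either (0.27 ± 0.48, adjusted p = 0.617). CYP1B1, a cytochrome P450 gene that shares 11.3% of its exonic bases with CYP1B1-AS1, had 1.12, 0.901 and 1.35 CPM in shAhR-2 cells, against 3.6, 4.01 and 3.59 CPM in control cells. Its shAhR-2 libraries all lay below its controls (−1.72 ± 0.17, adjusted p = 1e-12). NQO1, a quinone reductase, had 3.27, 4.15 and 3.41 CPM in shAhR-2 cells, against 9.79, 11.4 and 10.4 CPM in control cells (−1.54 ± 0.13). NEDD9, a scaffold protein of focal adhesions, had 2.12, 0.996 and 1.33 CPM in shAhR-2 cells, against 9.32, 14.4 and 10.3 CPM in control cells (−2.94 ± 0.17). Neither gene's groups overlapped. SLC7A5, the large neutral amino acid transporter, fell (−0.84 ± 0.032; 143 ± 2.9 CPM in shAhR-2 cells and 256 ± 10.7 CPM in control cells), as did VAV3 (−0.78 ± 0.11), an exchange factor for small GTPases. HES1, a Notch-responsive repressor, rose (1.07 ± 0.26; 2.26 ± 0.682 CPM in shAhR-2 cells and 1.08 ± 0.228 CPM in control cells), and so did TNFAIP2 (1.81 ± 0.14) and STC2 (0.43 ± 0.085), a secreted glycoprotein.

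The receptor's core element, GCGTG on either strand, was searched in the 250 bases before the start of each gene (RefSeq, GRCh38.p14), and 11835 of the 15871 genes tested had a promoter in the table. It was held by 43.9% of the genes that fell at least 2-fold, 38.3% of those that rose at least 2-fold, 42.5% of those not called and 44.7% of all genes tested with a promoter. Among the AhR targets 9 of 13 promoters held it. The E-box CACGTG, which MYC proteins bind, was held by 7.52% of the genes that fell at least 2-fold, 7.29% of those that rose at least 2-fold and 8.86% of all tested. A short E2F element (TTTCGCGC or TTTGGCGC) stood in 2.55%, 0.982% and 1.57% of the same 3 sets, in 5 of 34 promoters of DNA replication genes and in 0 of 34 promoters of mitotic genes. A match is only a match of letters and is no site. The promoters below show an AhR target that fell (SLC7A5), one that was not called (TIPARP), one that rose (HES1), and 2 cell cycle genes described further on that fell and hold an E2F match (E2F1 and MCM6). They stand at chr16:87869508-87869757 (minus strand), chr3:156674340-156674589 (plus), chr3:194135898-194136147 (plus), chr20:33686386-33686635 (minus) and chr2:135876444-135876693 (minus), each printed 5′ to 3′ on its gene's strand. Capitals mark GCGTG or its reverse complement in the first 3 and the E2F element in the last 2. In MCM6 the 4 matches lie on both strands and overlap in pairs. The promoter of SLC7A5 also holds CACGTG, which overlaps none of the capitals.
SLC7A5: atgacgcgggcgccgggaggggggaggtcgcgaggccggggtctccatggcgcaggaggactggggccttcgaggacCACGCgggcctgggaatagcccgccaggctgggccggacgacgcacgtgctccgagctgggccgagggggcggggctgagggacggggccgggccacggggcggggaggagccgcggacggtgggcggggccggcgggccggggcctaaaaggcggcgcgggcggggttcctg
TIPARP: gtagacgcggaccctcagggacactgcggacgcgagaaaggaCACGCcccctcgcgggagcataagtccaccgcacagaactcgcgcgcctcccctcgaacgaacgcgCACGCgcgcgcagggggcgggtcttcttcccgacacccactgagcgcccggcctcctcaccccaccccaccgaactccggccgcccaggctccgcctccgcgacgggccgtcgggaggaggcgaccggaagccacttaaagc
HES1: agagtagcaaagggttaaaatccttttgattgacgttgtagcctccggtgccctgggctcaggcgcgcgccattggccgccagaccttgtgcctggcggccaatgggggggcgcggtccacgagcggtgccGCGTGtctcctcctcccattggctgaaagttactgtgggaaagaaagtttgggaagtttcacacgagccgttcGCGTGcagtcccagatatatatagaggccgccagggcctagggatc
E2F1: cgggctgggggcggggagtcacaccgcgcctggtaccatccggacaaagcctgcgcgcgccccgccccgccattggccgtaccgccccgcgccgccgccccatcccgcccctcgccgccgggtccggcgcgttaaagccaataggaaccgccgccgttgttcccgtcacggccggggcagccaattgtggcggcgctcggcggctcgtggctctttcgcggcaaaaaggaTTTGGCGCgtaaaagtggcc
MCM6: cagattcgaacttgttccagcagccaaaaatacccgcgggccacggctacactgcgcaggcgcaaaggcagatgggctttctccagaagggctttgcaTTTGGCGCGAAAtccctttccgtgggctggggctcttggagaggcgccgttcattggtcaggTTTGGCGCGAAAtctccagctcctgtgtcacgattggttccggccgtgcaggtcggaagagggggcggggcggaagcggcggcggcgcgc

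Across all genes the change with shAhR-2 was broad. Of 15871 genes 6063 fell (38.2%) and 5907 rose (37.2%), so 75.4% were called and a call alone sets few genes apart. A change of at least 2-fold was therefore used beside it, a rule chosen after the values were seen. By it 2008 genes fell (12.7%) and 2036 rose (12.8%), and at 4-fold or more there were 566 and 637. These shares of all genes tested are the background for every list count in this report. The genes that fell at least 2-fold had a median of 6.11 CPM in shAhR-2 cells and 19.2 CPM in control cells, where the control median of all genes tested was 17.6 CPM. Those that rose at least 2-fold were lower, with medians of 5.18 CPM in shAhR-2 cells and 1.49 CPM in control cells. Among 969 long non-coding RNAs 14% fell and 18.2% rose at least 2-fold, while among 13372 protein-coding genes both shares were 12.4%.

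**Figure D1:**
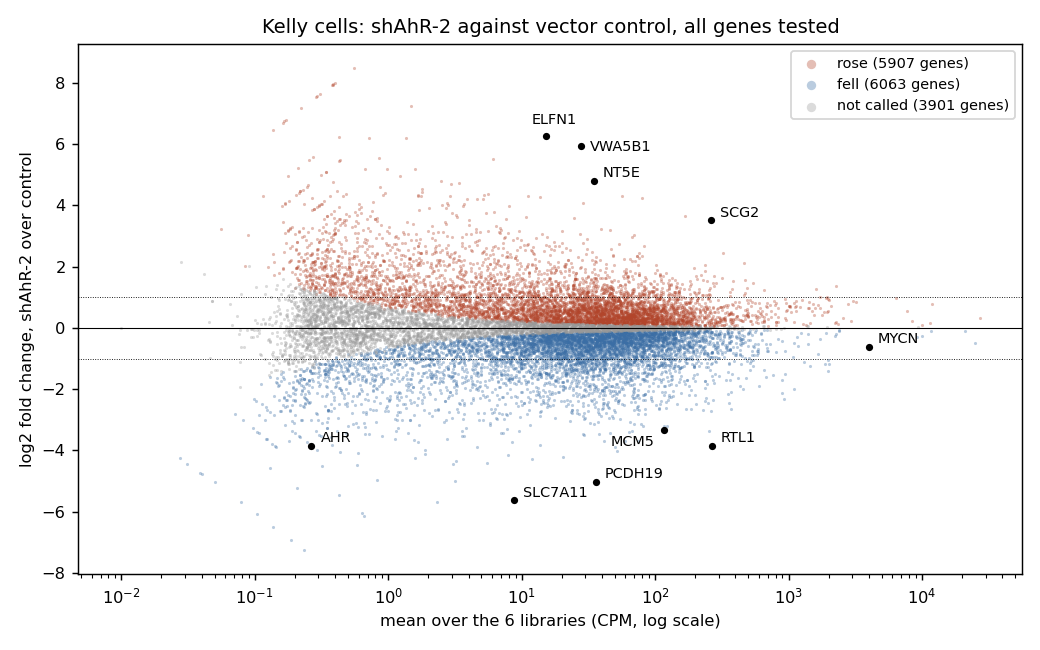
Each point is 1 of 15871 genes, with its mean level over the 3 shAhR-2 and 3 control libraries of Kelly cells on the horizontal axis (CPM, log scale) and the log2 fold change of shAhR-2 over control on the vertical axis. Red points rose (5907), blue points fell (6063) and grey points were not called (3901), and dotted lines mark a 2-fold change. Falls at or beyond 3 log2 units reach well-expressed genes such as RTL1 and MCM5.

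Among genes with a mean of at least 5 CPM over the 6 libraries, SLC7A11 (chr4:138164097-138242349, minus strand), which encodes the cystine-glutamate antiporter that feeds glutathione synthesis, fell most. It had 0.35, 0.474 and 0.221 CPM in shAhR-2 cells, against 18.1, 17.5 and 16.4 CPM in control cells (−5.63 ± 0.17, adjusted p = 6.28e-34). The protocadherin gene PCDH19, a neuronal adhesion molecule, had 2.55, 2.32 and 1.59 CPM in shAhR-2 cells, against 68.9, 67.3 and 72.3 CPM in control cells (−5.02 ± 0.078). Its relative PCDH18 fell by 3.73 on the log2 scale. RTL1 (chr14:100879753-100903722, minus strand), a retrotransposon-derived imprinted gene, had 35.7, 34.5 and 33.8 CPM in shAhR-2 cells, against 511, 480.5 and 505 CPM in control cells. In each of these genes the highest shAhR-2 library lay far below the lowest control. MYO10, the myosin of filopodia, had 0.489 ± 0.18 CPM in shAhR-2 cells and 10.5 ± 0.883 CPM in control cells (−4.40 ± 0.17). RAB27B, a small GTPase of vesicle secretion, had 2.08 ± 0.593 CPM in shAhR-2 cells and 38.6 ± 1.04 CPM in control cells (−4.21 ± 0.1). IDH2, the mitochondrial isocitrate dehydrogenase, had 8.38 ± 0.308 CPM in shAhR-2 cells and 109.6 ± 3.4 CPM in control cells (−3.71 ± 0.048). BCL2L12 fell too (−4.14 ± 0.15), but it shares 33.1% of its exonic bases with IRF3, so its counts are uncertain. The other 4 of the 12 largest falls, GINS4, RFC2, CDC45 and E2F7, belong to DNA replication and its control and are given with those genes.

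ELFN1 (chr7:1688119-1747954, plus strand), a synaptic adhesion protein gene, rose most among genes with a mean of at least 5 CPM, with 29.5, 30 and 30.8 CPM in shAhR-2 cells, against 0.362, 0.394 and 0.425 CPM in control cells (6.25 ± 0.14, adjusted p = 2.62e-39). VWA5B1, a gene with a von Willebrand factor type A domain, had 54.2, 55.6 and 55.1 CPM in shAhR-2 cells, against 1.04, 0.517 and 1.12 CPM in control cells (5.94 ± 0.12). Both were close to silent in the controls. NT5E (chr6:85449584-85495791, plus strand), the cell-surface nucleotidase that makes adenosine, had 68, 68.3 and 65 CPM in shAhR-2 cells, against 2.65, 2.39 and 2.15 CPM in control cells (4.80 ± 0.079). IGFN1, an immunoglobulin and fibronectin domain gene of muscle, had 107 ± 3.87 CPM in shAhR-2 cells and 5.4 ± 0.933 CPM in control cells (4.31 ± 0.076). BCAN, which encodes the brain proteoglycan brevican, had 26.2 ± 0.672 CPM in shAhR-2 cells and 1.36 ± 0.0937 CPM in control cells (4.27 ± 0.12). PAX7 (4.37 ± 0.21; 10.6 ± 1.03 CPM in shAhR-2 cells and 0.505 ± 0.212 CPM in control cells), a paired-box factor of neural crest and muscle precursors, EBF4 (4.29 ± 0.13), a factor of the early B-cell factor family, and KRT9 (5.51 ± 0.23), a skin keratin, rose as well. So did the non-coding genes MIR7-3HG (4.34 ± 0.2), host of a miR-7 precursor, and PCAT14 (4.22 ± 0.21). The histone pseudogenes H2BC20P (4.24 ± 0.057) and H2BC19P (4.08 ± 0.084) complete the 12, and since they closely resemble other histone genes, reads could be split among the copies.

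**Figure D2:**
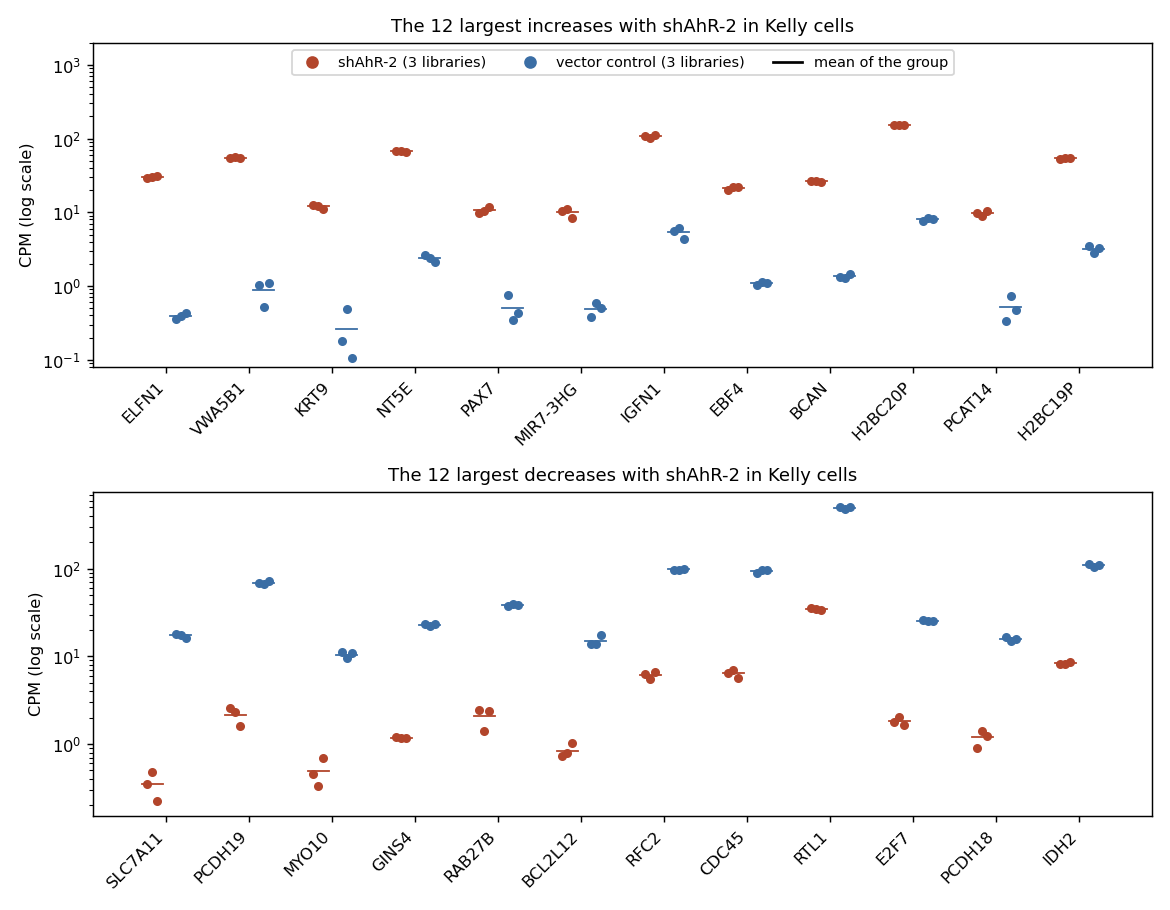
The 12 genes with the largest increases (upper panel) and decreases (lower panel) in Kelly cells, among called genes with a mean of at least 5 CPM whose groups do not overlap, a condition of the choice. Each point is 1 library (CPM, log scale), red for shAhR-2 and blue for the vector control, and short bars are group means. Among the risers H2BC20P and IGFN1 have the highest control means.

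DNA replication genes fell as a whole group. All 38 tested genes fell, 37 of them at least 2-fold, with a median of −2.59, where 12.7% of all genes fell so far. Their summed level was 1030 to 1060 CPM in shAhR-2 libraries and 5220 to 5240 CPM in control libraries. Genes for every part of the helicase that unwinds DNA were among them. MCM5 (chr22:35400063-35425430, plus strand), a subunit of the MCM ring, had 20.3, 22.3 and 20.9 CPM in shAhR-2 cells, against 213, 216 and 211 CPM in control cells (−3.33 ± 0.038, adjusted p = 1.31e-51). CDC45, which activates the ring, had 6.5, 6.99 and 5.67 CPM in shAhR-2 cells, against 88.4, 95.8 and 97.1 CPM in control cells (−3.88 ± 0.058). GINS4, of the GINS complex that completes it, had 1.2, 1.19 and 1.17 CPM in shAhR-2 cells, against 23.3, 22.1 and 23.3 CPM in control cells (−4.27 ± 0.11). The groups stayed apart by about an order of magnitude or more in these 3 genes. The other MCM genes spread more widely, at −2.67 ± 0.032 for MCM4, −2.63 ± 0.033 for MCM2, −2.38 ± 0.03 for MCM3, −1.84 ± 0.042 for MCM6 and −0.93 ± 0.032 for MCM7, the smallest fall of the list. MCM6, whose promoter is printed above, had 37, 32.4 and 32.5 CPM in shAhR-2 cells, against 121, 125 and 118 CPM in control cells.

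Licensing, loading and nucleotide supply followed the same direction. CDT1, which licenses origins, had 5.92 ± 0.629 CPM in shAhR-2 cells and 77.5 ± 1.43 CPM in control cells (−3.71 ± 0.06), and CDC6, its partner, and ORC1 of the origin recognition complex fell by 3.07 and 2.68 on the log2 scale. RFC2, of the clamp loader, had 6.22, 5.5 and 6.55 CPM in shAhR-2 cells, against 97.9, 97.4 and 99 CPM in control cells (−4.01 ± 0.055). The clamp PCNA itself fell less (−2.48 ± 0.036; 44.1 ± 1.93 CPM in shAhR-2 cells and 246 ± 7.33 CPM in control cells). RRM2, the limiting subunit of ribonucleotide reductase, had 48.5, 44.7 and 43.1 CPM in shAhR-2 cells, against 466, 472 and 459.6 CPM in control cells (−3.36 ± 0.035). Thymidine kinase TK1 (−3.47 ± 0.073) and thymidylate synthase TYMS (−2.45 ± 0.056) fell with it, and no shAhR-2 library of any of the 3 reached the controls.

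Genes of mitosis fell in the same way. All 41 tested fell, 40 of them at least 2-fold (median −2.048), and their sum was 1670 to 1710 CPM in shAhR-2 libraries and 6860 to 7070 CPM in control libraries. AURKB, the kinase of the chromosomal passenger complex, had 8.1, 7.23 and 7.9 CPM in shAhR-2 cells, against 83.5, 81.2 and 88.5 CPM in control cells (−3.45 ± 0.058, adjusted p = 1.09e-44). TOP2A, the topoisomerase of dividing cells, had 101, 101 and 105 CPM in shAhR-2 cells, against 617, 664 and 624 CPM in control cells (−2.63 ± 0.032). MKI67, the proliferation antigen, had 110.2 ± 3.98 CPM in shAhR-2 cells and 604 ± 14 CPM in control cells (−2.46 ± 0.037). CDC20 (−2.67 ± 0.056), the activator of the anaphase-promoting complex, ESPL1 (−2.52 ± 0.045), the separase, CDK1 (−2.43 ± 0.046), the mitotic kinase, and FOXM1 (−2.06 ± 0.034), a factor that drives mitotic genes, fell too. BUB3 of the spindle checkpoint fell least (−0.42 ± 0.031).

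Of 24 genes for G1 cyclins, their kinases, inhibitors and E2F factors 17 fell and 6 rose (median −0.816). Several of these roles held genes of both directions. The E2F factors that switch on replication genes fell: E2F1 had 11.8, 10.3 and 10.7 CPM in shAhR-2 cells, against 116, 113 and 119 CPM in control cells (−3.41 ± 0.049), and E2F2 (−3.45 ± 0.13) and E2F3 (−0.87 ± 0.041) fell too. E2F7 (−3.82 ± 0.1; 1.82 ± 0.189 CPM in shAhR-2 cells and 25.6 ± 0.643 CPM in control cells) and E2F8 (−2.96 ± 0.13), atypical repressors that are themselves cell cycle genes, fell with them. E2F5, of the repressive class, had 29.2, 26 and 27.4 CPM in shAhR-2 cells, against 9.95, 10.5 and 9.41 CPM in control cells (1.47 ± 0.074), and E2F4 rose slightly (0.21 ± 0.042). Among the inhibitors CDKN1B, the gene of p27, had 111, 106 and 115 CPM in shAhR-2 cells, against 78.2, 71.5 and 65.2 CPM in control cells (0.62 ± 0.042), and its shAhR-2 libraries all lay above its controls. CDKN1A, the gene of p21, had 17.3, 17 and 18.2 CPM in shAhR-2 cells, against 53.1, 52.9 and 48.8 CPM in control cells (−1.56 ± 0.052), and all its shAhR-2 libraries lay below. CCND1, the abundant D-type cyclin of neuroblastoma, rose (0.35 ± 0.028; 373 ± 6.31 CPM in shAhR-2 cells and 293 ± 5 CPM in control cells; 10.3% of its exonic bases are shared with LTO1), whereas CCND3 (−1.56 ± 0.092), CDK2 (−2.66 ± 0.079) and CDK6 (−0.76 ± 0.026) fell. RBL2, the pocket protein of resting cells, rose (0.53 ± 0.039), and RB1 fell slightly (−0.20 ± 0.042).

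MYCN fell by 0.61 on the log2 scale (SE 0.026, adjusted p = 2.52e-27), and it remained among the most abundant transcripts of the cell. MYC itself was close to 0 counts throughout. Of 16 tested genes of the MYC and MAX network 8 fell and 7 rose (median −0.083). MXD1, a MAX partner that represses MYC targets, had 19.8, 19.4 and 19.4 CPM in shAhR-2 cells, against 6.56, 7.63 and 6.75 CPM in control cells (1.48 ± 0.091), and its relatives MXD4 (1.33 ± 0.052), MXI1 (0.55 ± 0.04) and MNT (0.48 ± 0.043) rose too, while MXD3 (−1.39 ± 0.12), which shares 22.5% of its exonic bases with PRELID1, fell. FBXW7, the ubiquitin ligase subunit that targets MYC proteins, rose (0.80 ± 0.049), and AURKA, a kinase that stabilises MYCN, had 28.4 ± 0.353 CPM in shAhR-2 cells and 95.2 ± 3.78 CPM in control cells (−1.75 ± 0.043). Of 33 MYC target genes 22 fell and 7 rose (median −0.188), and 4 fell at least 2-fold. The shares over all genes tested were 38.2%, 37.2% and 12.7%. PTMA, a nuclear acidic protein gene and MYC target, had 308, 314 and 311 CPM in shAhR-2 cells, against 1566, 1519 and 1566 CPM in control cells (−2.32 ± 0.027). LDHA (−1.51 ± 0.03), of lactate formation, and NME1 (−1.50 ± 0.04), a nucleoside diphosphate kinase, fell at least 2-fold as well. TFRC, the transferrin receptor, went against the list with 879, 884 and 899 CPM in shAhR-2 cells, against 488, 515 and 499 CPM in control cells (0.83 ± 0.027), and so did PPAN (1.21 ± 0.079) of ribosome assembly.

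Adrenergic identity factors divided. Of 30 listed regulators 16 fell and 10 rose (median −0.164). HAND2, a core factor of sympathetic development that shares 24.1% of its exonic bases with HAND2-AS1, had 286, 293 and 281 CPM in shAhR-2 cells, against 754, 738 and 749.7 CPM in control cells (−1.38 ± 0.027, adjusted p = 6.64e-42). TFAP2B, a neural crest factor, had 122, 129 and 129.5 CPM in shAhR-2 cells, against 418, 409 and 414 CPM in control cells (−1.71 ± 0.031). GATA2 had 2315, 2312 and 2257 CPM in shAhR-2 cells, against 944, 945 and 932 CPM in control cells (1.29 ± 0.025), and all 3 of its shAhR-2 libraries lay above all 3 controls. HAND1, the paralog of HAND2, had 538, 536 and 529.7 CPM in shAhR-2 cells, against 220.1, 229.7 and 219.9 CPM in control cells (1.26 ± 0.028), so the 2 paralogs moved in opposite directions. TBX2 (1.17 ± 0.028; 504 ± 5.64 CPM in shAhR-2 cells and 224 ± 5.31 CPM in control cells) and MEIS1 (1.03 ± 0.039), further factors of the adrenergic circuit, rose. GATA3 (−0.26 ± 0.029), PHOX2A (−0.11 ± 0.032) and ISL1 (−0.17 ± 0.034) fell slightly. ALK, the receptor kinase gene of neuroblastoma, had 25.6, 26.7 and 27 CPM in shAhR-2 cells, against 73.8, 75 and 74.4 CPM in control cells (−1.49 ± 0.048), and the zinc-finger gene INSM2 fell (−1.15 ± 0.027; 224 ± 3.08 CPM in shAhR-2 cells and 497 ± 2.23 CPM in control cells). LIN28B, which blocks let-7 maturation, rose (0.28 ± 0.027; 358 ± 6.86 CPM in shAhR-2 cells and 295 ± 4.76 CPM in control cells).

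In the catecholamine pathway the synthetic enzymes TH, DDC and DBH fell, while several storage genes rose. TH (chr11:2163929-2171877, minus strand), the rate-limiting enzyme of catecholamine synthesis, had 139, 146 and 147 CPM in shAhR-2 cells, against 356, 336 and 364 CPM in control cells (−1.29 ± 0.035). DBH, which makes noradrenaline, had 418, 426 and 426 CPM in shAhR-2 cells, against 1411, 1330 and 1385 CPM in control cells (−1.70 ± 0.028). DDC (−0.64 ± 0.027), between these steps, and MAOA (−1.74 ± 0.03), which degrades the amines, fell too, and in none of the 4 did the groups overlap. SCG2 (chr2:223596940-223602503, minus strand), a granin of dense-core vesicles, had 493, 483 and 481 CPM in shAhR-2 cells, against 43.6, 40.8 and 43.4 CPM in control cells (3.51 ± 0.034, adjusted p = 1.94e-54). CHGB (0.58 ± 0.029) and VGF (1.00 ± 0.073), secretory granule proteins, and the vesicular amine transporters SLC18A1 (0.44 ± 0.043) and SLC18A2 (0.32 ± 0.04) rose, whereas CHGA, the main granin, had 850.3 ± 14.4 CPM in shAhR-2 cells and 2026 ± 73.8 CPM in control cells (−1.25 ± 0.027). PNMT (1.93 ± 0.39), which turns noradrenaline into adrenaline, and MAOB (2.67 ± 0.47), the relative of MAOA, rose, and the neuropeptide genes VIP (−4.00 ± 0.64) and GAL (−1.14 ± 0.043) fell. In all, 11 of 27 tested genes fell and 14 rose (median 0.164).

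Neuronal differentiation genes rose more often than they fell, 25 against 17 of 42 tested (median 0.465), where 37.2% of all genes rose and 38.2% fell. At least 2-fold 11 rose, where 12.8% of all genes did. PRPH, the intermediate filament of peripheral neurons, had 313, 310.0 and 307 CPM in shAhR-2 cells, against 82.2, 76 and 79.5 CPM in control cells (1.97 ± 0.035). NCAM1, the neural cell adhesion molecule, had 705, 712 and 698 CPM in shAhR-2 cells, against 242, 239.7 and 241 CPM in control cells (1.55 ± 0.028). L1CAM, an adhesion molecule of growing axons, had 571, 572 and 561 CPM in shAhR-2 cells, against 199.9, 194 and 198 CPM in control cells (1.52 ± 0.029). The shAhR-2 libraries of these 3 genes were more than 2-fold above every control. STMN4 (1.59 ± 0.064), the RNA-binding protein gene ELAVL4 (1.37 ± 0.032), the synaptic vesicle gene SYT1 (1.31 ± 0.032), and DCX (1.10 ± 0.035), of migrating young neurons, rose as well. In the other direction KIF1A, a motor of synaptic vesicle precursors, had 181, 191 and 180.5 CPM in shAhR-2 cells, against 689, 679 and 688 CPM in control cells (−1.90 ± 0.029). SYN1 (−1.76 ± 0.074), a synaptic vesicle phosphoprotein, CRMP1 (−1.77 ± 0.035), of growth cone signalling, and CNTN2 (−1.17 ± 0.064), an axonal contactin, fell at least 2-fold. Neurofilament genes differed, with NEFM at 0.99 ± 0.032, NEFL at −0.74 ± 0.042 and NEFH at −0.71 ± 0.031. Axon guidance genes were evenly divided, with 16 of 40 falling and 16 rising (median −0.008). UNC5A, a netrin receptor, had 145 ± 3.64 CPM in shAhR-2 cells and 49.9 ± 1.76 CPM in control cells (1.54 ± 0.04), PLXNA4 (1.67 ± 0.066), a semaphorin co-receptor, rose, and EFNB2 (−1.50 ± 0.1) and RGMA (−1.26 ± 0.066) fell.

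Genes for receptors of neurotrophins, GDNF ligands and growth factors moved in both directions. RET (chr10:43077027-43130351, plus strand), the signalling receptor for GDNF-family ligands, had 375, 379 and 366 CPM in shAhR-2 cells, against 99.9, 109 and 99 CPM in control cells (1.86 ± 0.034). NTRK3, the receptor for neurotrophin-3, rose as well (3.12 ± 0.19; 8.21 ± 0.728 CPM in shAhR-2 cells and 0.935 ± 0.224 CPM in control cells), but GFRA3, a co-receptor of RET, fell (−2.51 ± 0.22). LTK, a relative of ALK, had 12.9, 12.1 and 14.3 CPM in shAhR-2 cells, against 1.85, 1.65 and 1.65 CPM in control cells (2.93 ± 0.14), whereas ALK fell, as given above. FGFR2 rose (1.67 ± 0.042; 128 ± 3.93 CPM in shAhR-2 cells and 40 ± 1.98 CPM in control cells) and FGFR1 fell (−1.09 ± 0.056; 17.9 ± 0.328 CPM in shAhR-2 cells and 38.1 ± 1.74 CPM in control cells). EGFR had 8.97, 9.32 and 8.52 CPM in shAhR-2 cells, against 48.4, 50 and 49.1 CPM in control cells (−2.46 ± 0.064), with no overlap, and IGF1R fell by less (−0.67 ± 0.036). Of the 20 tested receptors 10 rose and 7 fell (median 0.19). In the retinoic acid pathway 9 of 21 rose and 8 fell (median 0.113). CRABP2, a cytosolic carrier of retinoic acid, had 95.5, 93.2 and 93.8 CPM in shAhR-2 cells, against 14, 13.1 and 14.8 CPM in control cells (2.76 ± 0.055), while the receptor gene RARA fell (−0.78 ± 0.049).

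Developmental signalling families each held genes that rose and genes that fell. In the Wnt pathway 15 of 34 rose and 14 fell (median 0.078). SFRP1, a secreted Wnt antagonist, had 536, 556 and 536 CPM in shAhR-2 cells, against 101, 94.3 and 101 CPM in control cells (2.46 ± 0.032). FRZB, a related antagonist, rose (1.23 ± 0.12), but DKK1, which blocks the co-receptor, had 3.22, 2.75 and 3.43 CPM in shAhR-2 cells, against 15.2, 14.7 and 15.7 CPM in control cells (−2.27 ± 0.092). WNT5B (2.27 ± 0.12) rose, WNT2B rose with 21.2% of its exonic bases shared with ST7L (2.04 ± 0.13), and the receptor genes LRP5 (−1.83 ± 0.049), FZD5 (−1.76 ± 0.12) and FZD6 (−1.67 ± 0.099) fell. Among TGF-beta genes 14 of 30 rose and 11 fell (median 0.185). BAMBI, a decoy receptor, had 33.9, 33.9 and 31.4 CPM in shAhR-2 cells, against 4.48, 5.14 and 6.12 CPM in control cells (2.66 ± 0.088), and the inhibitory SMAD7 (1.54 ± 0.092) and the receptors ACVR1B (1.01 ± 0.034) and TGFBR1 (0.91 ± 0.051) rose, while the ligand TGFB1 had 28.7 ± 0.77 CPM in shAhR-2 cells and 68.8 ± 6.05 CPM in control cells (−1.26 ± 0.056). For BMP and ID genes the counts were 9 risen and 5 fallen of 18 (median 0.252), with BMPR2 (1.17 ± 0.037) and ID2 (0.97 ± 0.033; 277 ± 3.51 CPM in shAhR-2 cells and 141 ± 5.69 CPM in control cells) higher and ID3 (−1.03 ± 0.069) and the ligand BMP7 (−0.65 ± 0.033) lower. In the Notch list 12 of 24 rose and 8 fell (median 0.097). DLK1, an imprinted ligand that inhibits Notch, had 327, 337 and 335 CPM in shAhR-2 cells, against 1507, 1389 and 1475 CPM in control cells (−2.13 ± 0.03), and the ligands DLL3 (0.98 ± 0.054) and JAG2 (0.89 ± 0.042) rose.

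Of 30 p53 targets 14 fell and 8 rose (median −0.067), with no common direction among the apoptotic ones. BBC3, which encodes PUMA, rose (1.18 ± 0.092; 17.3 ± 0.796 CPM in shAhR-2 cells and 7.61 ± 0.468 CPM in control cells), and PMAIP1, which encodes NOXA, had 3.77, 4.08 and 3.56 CPM in shAhR-2 cells, against 17.5, 15.7 and 15.3 CPM in control cells (−2.09 ± 0.1). BAX (−0.93 ± 0.037), the pore-forming effector, and DDB2 (−1.07 ± 0.062), of DNA repair, fell. The growth-restraining genes TP53INP1 (1.23 ± 0.051) and BTG2 (0.92 ± 0.047) rose. In the BCL2 family BCL2, the survival factor, had 140.4, 146 and 138 CPM in shAhR-2 cells, against 22.6, 23.5 and 20.9 CPM in control cells (2.66 ± 0.046, adjusted p = 2.41e-44), and BCL2L1, which encodes BCL-XL, had 13.8, 12.2 and 12.1 CPM in shAhR-2 cells, against 25.9, 28 and 28.5 CPM in control cells (−1.11 ± 0.068). Neither pair of groups overlapped. BOK (1.53 ± 0.053) and BCL2L11, the BIM gene (0.73 ± 0.083), both pro-apoptotic, rose, and over the family 9 of 18 fell and 7 rose (median −0.111).

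Most genes of amino acid supply and of the stress responses that control it fell. Of 32 genes that answer amino acid shortage or unfolded proteins 26 fell and 4 rose (median −0.703). Over all genes tested 38.2% fell and 37.2% rose. PHGDH, the first enzyme of serine synthesis, had 35, 33.8 and 32.4 CPM in shAhR-2 cells, against 207, 200.5 and 210.2 CPM in control cells (−2.61 ± 0.038). PSPH (−1.61 ± 0.061) and PSAT1 (−1.34 ± 0.045), of the same pathway, and ATF4 (−0.96 ± 0.029; 179 ± 0.567 CPM in shAhR-2 cells and 348 ± 2.89 CPM in control cells), the factor that drives such genes, fell. CALR, a chaperone of the endoplasmic reticulum, had 141, 139.9 and 144 CPM in shAhR-2 cells, against 612, 592 and 594 CPM in control cells (−2.08 ± 0.03), and HSPA5, the BiP chaperone, fell less (−0.97 ± 0.026). The 4 that rose were DNAJB9 (1.15 ± 0.079), TRIB3 (0.84 ± 0.072), VLDLR (0.80 ± 0.074) and DDIT3 (0.69 ± 0.14), the CHOP gene. Of 20 tRNA synthetase genes 15 fell and 3 rose (median −0.453), led by AARS1 (−1.66 ± 0.034; 74.2 ± 3.96 CPM in shAhR-2 cells and 235 ± 0.803 CPM in control cells) and CARS1 (−1.61 ± 0.076), and the 3 risers were HARS1 (0.22 ± 0.036), EPRS1 (0.20 ± 0.026) and SARS1 (0.15 ± 0.029).

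Lipid synthesis genes fell almost without exception. Of 31 tested genes of cholesterol and fatty acid synthesis 30 fell, 14 at least 2-fold, and none rose (median −0.797). Over all genes tested 38.2% fell, 12.7% at least 2-fold. HMGCS1 (chr5:43289395-43313512, minus strand), near the start of the pathway, had 56.5, 55.4 and 53.6 CPM in shAhR-2 cells, against 197, 204 and 199 CPM in control cells (−1.86 ± 0.035, adjusted p = 2.16e-42). Every shAhR-2 library lay more than 3-fold below every control. STARD4 (−2.07 ± 0.039), a sterol carrier, and the controlling factor genes SREBF1 (−1.84 ± 0.045) and SREBF2 (−0.63 ± 0.029) fell, and among fatty acid enzymes SCD (−0.74 ± 0.025) and FASN (−0.60 ± 0.03) fell. TM7SF2, a sterol reductase, was not called (0.02 ± 0.089).

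Of 31 glutathione and NRF2 target genes 22 fell and 3 rose (median −0.649), where 38.2% of all genes tested fell and 37.2% rose. SLC7A11 stands among those that fell. GPX1, the cytosolic glutathione peroxidase, had 6.05, 6.78 and 6.02 CPM in shAhR-2 cells, against 69, 69.9 and 69.5 CPM in control cells (−3.47 ± 0.057). GSTP1, a glutathione transferase, had 49.4, 49.4 and 47.5 CPM in shAhR-2 cells, against 232, 221 and 223 CPM in control cells (−2.21 ± 0.034). MGST1, a microsomal transferase, had 2.95, 2.61 and 2.63 CPM in shAhR-2 cells, against 17.4, 16.3 and 14.6 CPM in control cells (−2.56 ± 0.11). Each had groups that stood at least 4-fold apart. GCLM (−1.28 ± 0.076), a subunit of the enzyme that starts glutathione synthesis, fell, and GCLC, the catalytic partner of GCLM, was not called (0.02 ± 0.044). The 3 that rose, GSTM3 (1.16 ± 0.038; 134 ± 2.84 CPM in shAhR-2 cells and 59.8 ± 1.69 CPM in control cells), GSTM2 (1.14 ± 0.055) and GSTM4 (0.29 ± 0.065), are similar mu-class transferases of a gene cluster, and reads could be split among them. GPX4, which protects against lipid peroxidation, fell slightly (−0.20 ± 0.039). Among iron genes 9 of 18 rose and 7 fell (median 0.169), with TFRC and the iron exporter SLC40A1 (0.55 ± 0.11) higher. HMOX1, the haem oxygenase, was lower (−1.67 ± 0.14; 3.37 ± 0.869 CPM in shAhR-2 cells and 10.7 ± 1.26 CPM in control cells), and the ferritin gene FTH1 (−1.14 ± 0.038) shares 62.4% of its exonic bases with BEST1.

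Energy metabolism genes moved both ways within each pathway. Of 36 genes of glycolysis and the hypoxia response 19 fell and 13 rose (median −0.083). PKM, the last enzyme of glycolysis, had 388, 389.7 and 393 CPM in shAhR-2 cells, against 1145, 1132 and 1141 CPM in control cells (−1.55 ± 0.026), and PGAM1 fell with it (−1.62 ± 0.04; 35 ± 0.312 CPM in shAhR-2 cells and 108 ± 0.244 CPM in control cells). NDRG1, a stress-induced gene that MYCN represses, had 36.7, 35.5 and 33.5 CPM in shAhR-2 cells, against 5.18, 5.12 and 5.03 CPM in control cells (2.78 ± 0.086), and ENO2, the neuronal enolase, rose (0.90 ± 0.027; 632 ± 5.24 CPM in shAhR-2 cells and 339.6 ± 7 CPM in control cells). Nuclear genes of the respiratory chain had a median of 0, with 21 of 46 falling and 18 rising, from NDUFA8 of complex I (−1.45 ± 0.057) to UQCRB of complex III (0.78 ± 0.035). Of 13 mitochondrially encoded mRNAs 6 rose and 5 fell, or 3 by DESeq2 (median 0.065), with MT-ND1 at 0.79 ± 0.028 and MT-ATP6 at −0.31 ± 0.03.

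Ribosomal protein genes rose nearly throughout. Of 77 tested, 73 rose and 2 fell (median 0.656), with 2 not called, where 37.2% of all genes rose. Their sum was 94100 to 95200 CPM in shAhR-2 libraries and 59900 to 63500 CPM in control libraries. RPS18 had 2600, 2588 and 2604 CPM in shAhR-2 cells, against 1310, 1275 and 1262 CPM in control cells (1.02 ± 0.027). RPL15 had 2313, 2327 and 2318 CPM in shAhR-2 cells, against 1181, 1097 and 1165 CPM in control cells (1.01 ± 0.026). RPS24 went against the rest, with 487, 479 and 489 CPM in shAhR-2 cells, against 1409, 1364 and 1388 CPM in control cells (−1.52 ± 0.028), and RPS26 also fell (−0.61 ± 0.035; 90.2 ± 0.577 CPM in shAhR-2 cells and 137 ± 5.02 CPM in control cells). Ribosomal protein genes have many processed pseudogenes, so single values are uncertain to that extent. Chaperones fell more often than they rose, 23 against 10 of 37 (median −0.288), where 38.2% of all genes tested fell. HSPB1 (−1.51 ± 0.043) and DNAJB1 (−1.45 ± 0.047), of the heat shock response, were at least 2-fold lower and HSPA4 (0.44 ± 0.027) was higher.

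Of 26 tested histone genes 17 rose and 5 fell, while their summed level was lower, at 352 to 357 CPM in shAhR-2 libraries and 594 to 610 CPM in control libraries. Most of the list thus went against its total. The median change was positive (1.476, a value that moved between 0.871 with no filter on low counts and 1.965 with a mean of at least 1 CPM). H2AC6 had 50.3, 49.7 and 51.2 CPM in shAhR-2 cells, against 7.24, 9.01 and 6.01 CPM in control cells (2.76 ± 0.078). H4C8 had 13.4, 14.1 and 12.4 CPM in shAhR-2 cells, against 1.31, 1.48 and 2.39 CPM in control cells (2.96 ± 0.15). H2BC5 had 29.1, 29 and 27.8 CPM in shAhR-2 cells, against 4.14, 5.17 and 5 CPM in control cells (2.59 ± 0.093). H4C1, H2AC20, H2BC9 and H4C3 fell at means below 2 CPM, too low to set that total, and H2BC9 lost its call without the first control (adjusted p = 0.273). Histone copies are similar in sequence, and reads could be split among them.

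Mesenchymal state genes showed no common direction, with 15 of 33 risen, 14 fallen and a median of −0.005. VIM, the mesenchymal filament vimentin, had 56.8, 58.6 and 55.1 CPM in shAhR-2 cells, against 26.3, 23.4 and 26.9 CPM in control cells (1.16 ± 0.057), and JUN (1.07 ± 0.045) and BHLHE41 (1.79 ± 0.12) rose. FN1, fibronectin, had 13, 13.5 and 12.1 CPM in shAhR-2 cells, against 45.1, 46 and 44 CPM in control cells (−1.81 ± 0.055), ANXA2, a membrane-binding annexin, had 5.11 ± 0.636 CPM in shAhR-2 cells and 23.9 ± 0.896 CPM in control cells (−2.22 ± 0.094), and NOTCH3 (−1.21 ± 0.074) and TEAD1 (−0.89 ± 0.033), the partner of YAP, fell. Of 31 collagen and matrix genes 16 rose and 9 fell (median 0.268). TIMP2, a metalloproteinase inhibitor, had 308, 311 and 301 CPM in shAhR-2 cells, against 105, 103 and 99.1 CPM in control cells (1.59 ± 0.032), MMP15 (1.86 ± 0.053) and COL9A3 (2.67 ± 0.093) rose, and LAMA1 (−2.15 ± 0.046) and FBN1 (−1.78 ± 0.073), of laminin and fibrillin, fell. Immediate early genes rose in 16 of 28 cases and fell in 7 (median 0.626), with the phosphatase DUSP5 (1.91 ± 0.11) and SPRY4 (1.13 ± 0.056), feedback inhibitors of ERK signalling, higher and DUSP6 (−0.56 ± 0.085) and JUND (−0.87 ± 0.043) lower. In the interferon and antigen presentation list 8 of 21 rose and 7 fell, or 4 without the first shAhR-2 library, and the median of −0.142 took either sign over the settings tried. NLRC5, the activator of MHC class I genes, rose (2.64 ± 0.11) while B2M, a class I subunit, fell (−0.90 ± 0.053; 25.6 ± 1.51 CPM in shAhR-2 cells and 47.7 ± 0.661 CPM in control cells). Of 13 oncofetal growth genes 6 rose and 5 fell (median −0.024). IGF2 had 325, 343 and 338 CPM in shAhR-2 cells, against 1038, 959 and 1067 CPM in control cells (−1.61 ± 0.038), HMGA1 fell (−1.14 ± 0.031), and IGF2BP3 rose with 17.9% of its exonic bases shared with MALSU1 (0.58 ± 0.032).

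**Figure D3:**
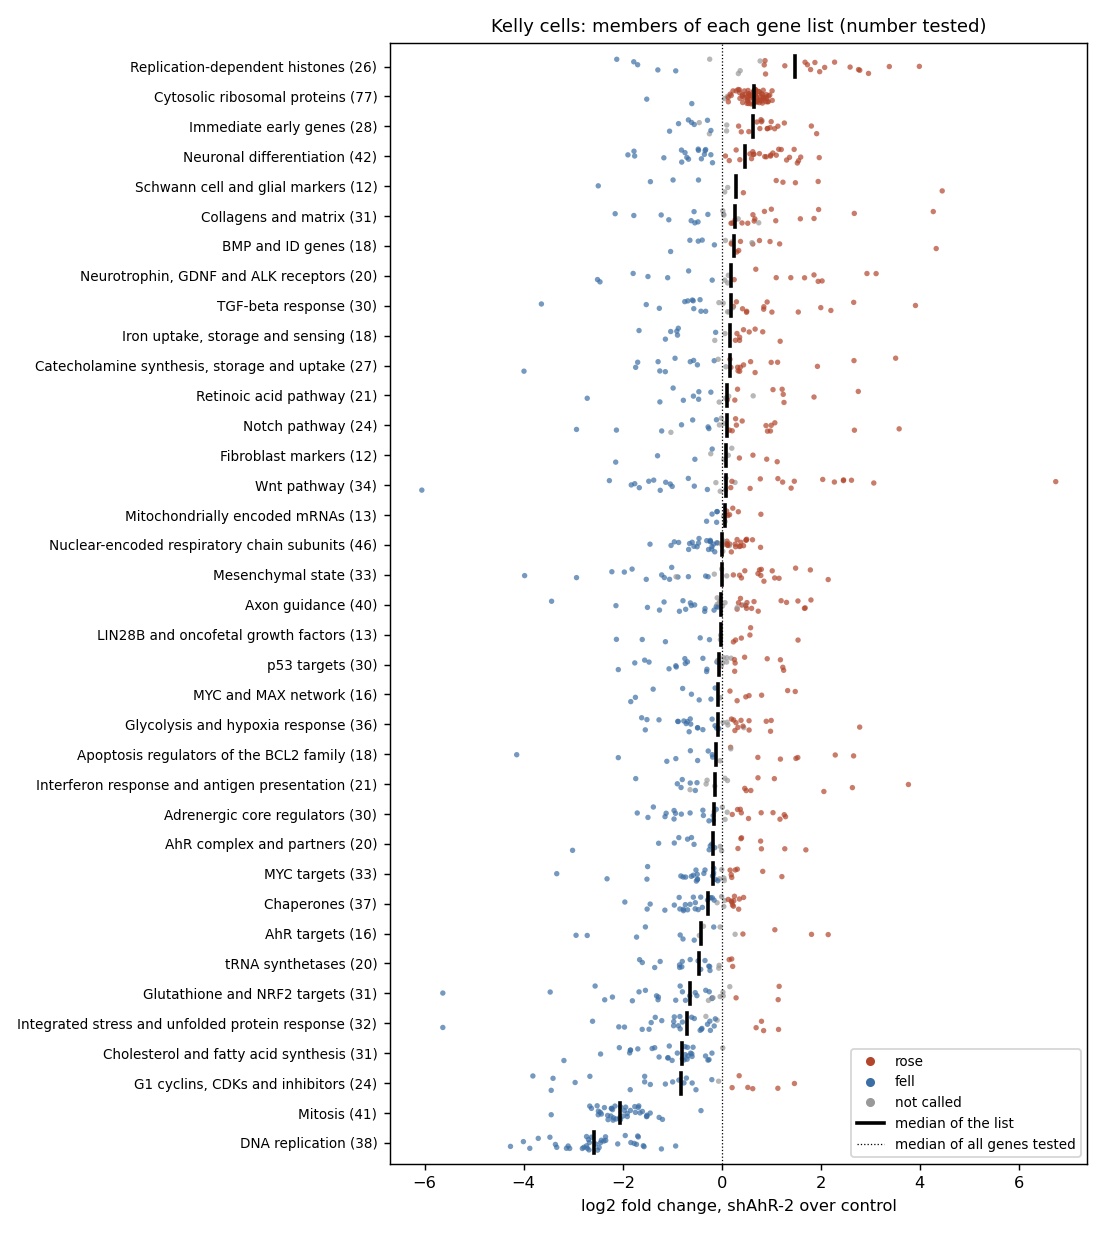
Log2 fold change of shAhR-2 over control in Kelly cells for every tested member of each gene list with at least 12 tested members (number in brackets). Points are genes, red where they rose, blue where they fell and grey where they were not called, spread vertically for legibility. Thick bars are list medians and the dotted line is the median of all genes tested. DNA replication (−2.59) and mitosis (−2.048) lie lowest, and histones (1.476) and ribosomal proteins (0.656) highest.

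Markers of other cell types were low or moved both ways. Of 12 fibroblast markers tested 4 rose and 4 fell, and their sum was 463 to 475 CPM in shAhR-2 libraries and 543 to 588 CPM in control libraries. COL1A1 had 7.45, 6.61 and 7.26 CPM in shAhR-2 cells, against 10.8, 10.7 and 9.6 CPM in control cells (−0.54 ± 0.13), a call that DESeq2 did not make (adjusted p = 0.0957). Of 12 Schwann cell and glial markers 6 rose and 4 fell, with a sum of 256 to 266 CPM in shAhR-2 libraries and 282 to 294 CPM in control libraries, and GAP43, which neurons express too, made up most of it (−0.47 ± 0.031). PMP22, a myelin protein gene, rose (1.23 ± 0.055; 67.7 ± 2.69 CPM in shAhR-2 cells and 28.8 ± 0.626 CPM in control cells), while SOX2 (−2.50 ± 0.17; 1.04 ± 0.247 CPM in shAhR-2 cells and 5.88 ± 1.1 CPM in control cells) and SOX9 (−0.99 ± 0.12) fell, and SOX10 and S100B were too low to test. Of 17 leukocyte markers 4 could be tested, of which 2 rose, 1 fell and 1 was not called. Their sum was 10.8 to 11.7 CPM in shAhR-2 libraries and 8.67 to 9.95 CPM in control libraries. CD4, a T-cell co-receptor gene, rose among them (2.06 ± 0.18; 5.88 ± 0.511 CPM in shAhR-2 cells and 1.4 ± 0.238 CPM in control cells). The other riser, CD14, lost its call without the first control (edgeR, adjusted p = 0.124). Of 12 endothelial and epithelial markers 6 could be tested, 4 rose and 2 fell, and their sum was 12.6 to 14.6 CPM in shAhR-2 libraries and 8.45 to 9.61 CPM in control libraries. The part of such cells in the other results was not tested.

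The Kelly libraries labelled shAhR-2 and shAhR-1 were compared directly, which asked where the hairpins differed. AHR counts in the libraries labelled shAhR-1 lay within the range of the controls, and mitochondrial transcripts took 17.4 to 17.7% of their counts, whose part in the differences was not tested. Both hairpins share the control libraries, so the values against control are only set side by side here. With shAhR-2, 6231 genes were lower (39.3%) and 6058 higher (38.2%) than in the libraries labelled shAhR-1. All 38 DNA replication genes and all 41 mitotic genes were lower with shAhR-2. Against control their medians were −2.59 and −2.048 with shAhR-2, and −0.006 and −0.199 with shAhR-1. MCM5 averaged 21.2 ± 1.03 CPM in shAhR-2 cells, 269.8 ± 5.22 CPM in libraries labelled shAhR-1 and 214 ± 2.48 CPM in control cells, so it lay above the control only with shAhR-1 (0.34 ± 0.03), and the difference between hairpins was −3.67 ± 0.038 (adjusted p = 2.28e-53). Ribosomal protein genes differed the other way, with 75 of 77 higher in shAhR-2 cells, and a median against control of 0.656 with shAhR-2 and −0.366 with shAhR-1.

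Identity genes also set the hairpins apart. PRPH averaged 309.8 ± 2.96 CPM in shAhR-2 cells, 25.2 ± 1.81 CPM in libraries labelled shAhR-1 and 79.2 ± 3.12 CPM in control cells (difference 3.62 ± 0.041). TH averaged 144 ± 4.58 CPM in shAhR-2 cells, 49.1 ± 3.76 CPM in libraries labelled shAhR-1 and 352 ± 14.1 CPM in control cells, so it was lower than control in both groups and lowest with shAhR-1 (difference 1.56 ± 0.04). MYCN averaged 3147 ± 35.3 CPM in shAhR-2 cells, 2424 ± 31.8 CPM in libraries labelled shAhR-1 and 4816 ± 218 CPM in control cells and followed the same order (difference 0.38 ± 0.026). CYP1B1 averaged 1.12 ± 0.225 CPM in shAhR-2 cells, 11 ± 1.76 CPM in libraries labelled shAhR-1 and 3.73 ± 0.241 CPM in control cells, below control with one hairpin and above it with the other (difference −3.28 ± 0.16, adjusted p = 7.75e-25). CRABP2 (4.27 ± 0.065) and NDRG1 (4.17 ± 0.1) were higher with shAhR-2, and CDKN1A (−2.31 ± 0.051), FN1 (−2.66 ± 0.053) and RGMA (−2.73 ± 0.062) were lower. Among genes of at least 5 CPM the difference was greatest upward for KRT9, with 2 counts in all in the libraries labelled shAhR-1, AQP2, a water channel, PAX7, VWA5B1, ELFN1 and AMHR2, a hormone receptor gene, of which AQP2 averaged 11.7 ± 0.498 CPM in shAhR-2 cells, 0.0378 ± 0.0328 CPM in libraries labelled shAhR-1 and 1.15 ± 0.278 CPM in control cells and AMHR2 17.3 ± 1.97 CPM in shAhR-2 cells, 0.141 ± 0.0996 CPM in libraries labelled shAhR-1 and 1.93 ± 0.22 CPM in control cells. It was greatest downward for PCDH19, SHOX2, PCDH18, IDH2, RFC2 and GINS4. SHOX2, a homeobox gene, averaged 10.4 ± 0.354 CPM in shAhR-2 cells, 245 ± 11.4 CPM in libraries labelled shAhR-1 and 64.9 ± 3.1 CPM in control cells (difference −4.56 ± 0.048). NQO1 (−0.15 ± 0.14, adjusted p = 0.344) and CHGA (0.05 ± 0.026, adjusted p = 0.0794), which lay below control with both hairpins, were not called different between them.

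**Figure D4:**
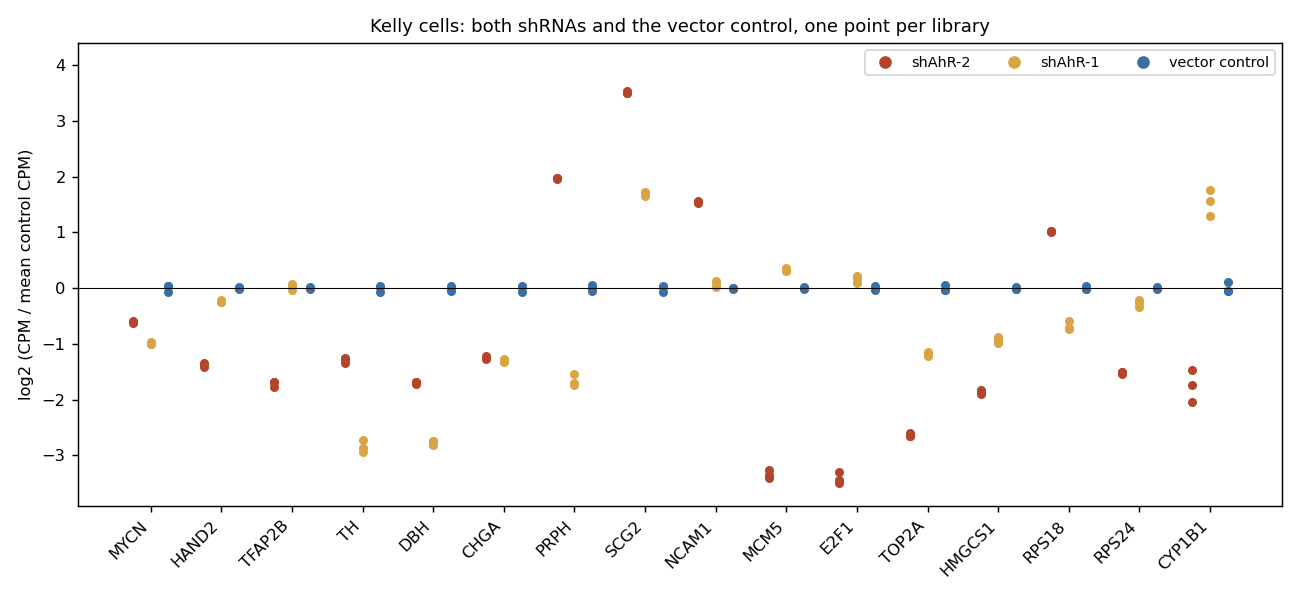
Level of 16 genes in single Kelly libraries as the log2 ratio to the mean of the 3 controls, with shAhR-2 in red, shAhR-1 in yellow and the vector control in blue, 3 points each. For MCM5, E2F1, TFAP2B and RPS24 the shAhR-2 points lie far below both other groups, for TH and DBH the shAhR-1 points lie lowest, and for PRPH, RPS18 and CYP1B1 the hairpins fall on opposite sides of the control.

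The same hairpin was used in BE2C, which asked which changes in Kelly cells differed from those in the other line. AHR was low in BE2C, with 0, 0 and 0 counts with shAhR-2, against 4, 4 and 6 counts in control. A fit of all 18 libraries tested the difference between the lines, Kelly minus BE2C, over 17136 genes. The effect of shAhR-2 was lower in Kelly for 4938 genes (28.8%) and higher for 4428 (25.8%). Which side was larger turned with the filter, to 4275 lower and 4984 higher without one and 4204 and 4730 at a mean of at least 1 CPM. The first BE2C shAhR-2 library stood apart in its mitochondrial share, 25.1% against 20.5% in both others, and without it the counts were 4755 and 4405. Over 14680 genes tested in both lines the fold changes had r = 0.623 across genes, as a description, since the lines share no library and genes are not independent. Of the genes that fell at least 2-fold, 849 did so in both lines, which is 47% of the 1806 in Kelly and 59.7% of the 1423 in BE2C. For rises the number was 1079, 62% of 1741 in Kelly and 44.2% of 2440 in BE2C. The background for these shares is the 14680 genes tested in both lines. Of them 1423 fell and 2440 rose at least 2-fold in BE2C, and 1806 fell and 1741 rose in Kelly. Over all 15871 genes tested in Kelly 12.7% fell and 12.8% rose at least 2-fold.

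Proliferation genes had negative medians in both lines, further below 0 in Kelly. Of 38 DNA replication genes 35 were lower in Kelly and none higher, and of 41 mitotic genes 37 were lower and 1 higher, with medians in BE2C of −1.398 and −1.35. MCM5 changed by −3.33 ± 0.044 in Kelly and −1.37 ± 0.039 in BE2C (difference −1.96 ± 0.059, adjusted p = 6.45e-31). GINS4 changed by −4.26 ± 0.11 in Kelly and −0.94 ± 0.072 in BE2C. Ribosomal protein genes were higher in Kelly in 75 of 77 cases, and had a median of −0.071 in BE2C. Of 33 MYC targets 30 were higher in Kelly than in BE2C, TFRC among them (0.83 ± 0.04 in Kelly and −1.27 ± 0.04 in BE2C). MYCN fell less in Kelly (−0.61 ± 0.026) than in BE2C (−0.97 ± 0.026; difference 0.36 ± 0.037). For BCL2, with 2.67 ± 0.048 in Kelly and 2.75 ± 0.045 in BE2C, the difference of −0.09 ± 0.065 was not called (adjusted p = 0.279).

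Matrix and mesenchymal genes parted the lines. Of 30 TGF-beta genes 23 were lower in Kelly and 2 higher, of 31 collagen and matrix genes 23 and 3, and of 12 fibroblast markers 11 and 1. Against their own controls in BE2C these lists had medians of 1.273, 1.695 and 1.657, and in Kelly of 0.185, 0.268 and 0.086. FN1 changed by −1.81 ± 0.074 in Kelly and 1.68 ± 0.07 in BE2C (difference −3.48 ± 0.1). TGFB1 changed by −1.26 ± 0.068 and 2.44 ± 0.084 (difference −3.70 ± 0.11, adjusted p = 1.87e-31), and CDKN1A by −1.55 ± 0.064 and 1.74 ± 0.088. Both genes fell in Kelly and rose in BE2C. In all, 90 genes were at least 2-fold lower in Kelly and at least 2-fold higher in BE2C, and 17 the other way round, beside 875 lower and 1177 higher in both lines in this fit.

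**Figure D5:**
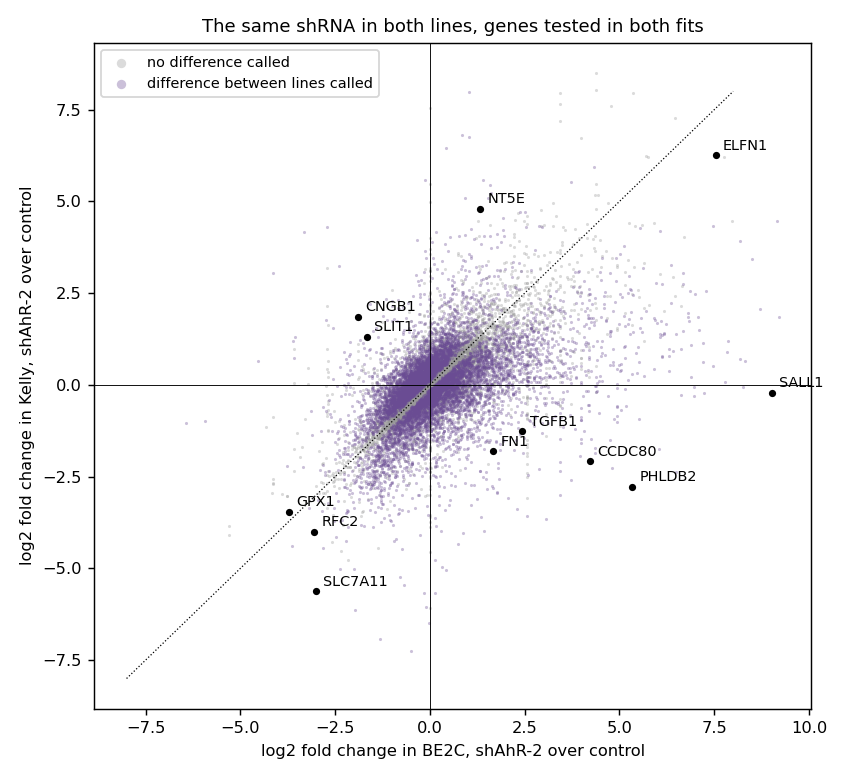
Each point is a gene tested in both fits, with its log2 fold change of shAhR-2 over control in BE2C on the horizontal axis and in Kelly on the vertical axis. Purple points have a called difference between the lines, and the dotted line marks equal change. ELFN1, GPX1, RFC2 and SLC7A11 moved the same way in both lines, while CCDC80, FN1 and TGFB1 lie lower right and CNGB1 and SLIT1 upper left. SALL1 and PHLDB2 had 0 counts in the BE2C controls, so their horizontal position is a fitted value and no measured fold.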

How the data were processed

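Per the labels' protocols, RNA came from a miRNeasy extraction and went into HyperPrep libraries after ribosomal RNA removal. CASAVA 1.8.2, STAR 2.7.9a and GRCh38.p7 are named in the submitters' processing notes. The authors deposited raw counts per gene, 1 table per line. For the counting tool, annotation and strand setting nothing was given in the sources used here, so overlapping and antisense genes can share reads. Even numbers made up 68.1 to 69.8% of the counts of 1 to 20 in the 6 libraries, so both reads of a fragment may have been counted, and counts were also halved as an alternative.

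Counts were filtered by filterByExpr, scaled by TMM and fitted with edgeR 4.0.16 in R 4.3.3. The fit held all 9 Kelly libraries (group only), and the comparison of lines all 18. Chi-square per degree of freedom between replicate libraries was 2.82 to 6.62, so none was a duplicate. Deviations of same-numbered shAhR-2 and control libraries from their group means correlated at 0.017, 0.0083 and −0.019, so no shared shift was seen. That cannot tell whether such libraries were prepared together, which no label states. Alternatives were RLE scaling, other filters, a replicate block, halved counts, leaving out mitochondrial genes or each library, fits of only the groups compared, and DESeq2 1.42.0. The methods were tested on simulated data. Gene locations are from GENCODE on GRCh38 and promoters from RefSeq on GRCh38.p14.

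The comparison and the 39 gene lists were chosen with earlier results of these data known. Named by rule were AHR and 15 genes of its pathway and of neuroblastoma identity, the 12 risers and 12 fallers with the largest change at a mean of at least 5 CPM with groups apart, up to 4 called members of each direction per list, and the 6 largest differences of each sign between hairpins and between lines. Further list members were named for their role after their values were seen. No test was run on lists. The E2F element was added after the values were seen. Some genes that this rule names are not reported here, and every count includes them.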

Additional observations from a re-analysis of the deposited data

Results flagged for a closer look

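The effect of shAhR-2 differed between Kelly and BE2C by edgeR's test of the difference for 4938 genes that were lower and 4428 that were higher in Kelly. Values below are log2 differences ± SE, Kelly minus BE2C, and no explanation was tested.

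Among genes of at least 5 CPM with groups apart, the largest positive differences were those of CNGB1, a cyclic nucleotide-gated channel subunit (3.76 ± 0.1), NT5E (3.48 ± 0.086), H2BC20P (3.17 ± 0.098), H2BC19P (3.15 ± 0.18), HES7, a Notch-responsive repressor (3.13 ± 0.55), and SLIT1, an axon guidance ligand (2.97 ± 0.2). CNGB1, HES7 and SLIT1 rose in Kelly (1.86 ± 0.061, 1.88 ± 0.13 and 1.31 ± 0.079) and had −1.91 ± 0.083, −1.25 ± 0.53 and −1.66 ± 0.18 in BE2C. HES7 was near the floor in BE2C, with 4, 4 and 4 counts with shAhR-2, against 8, 8 and 10 counts in control. The largest negative differences were those of SALL1, a zinc-finger factor (−9.23 ± 0.67), PHLDB2 (−8.11 ± 1.1), the miR-34a host MIR34AHG (−6.91 ± 0.9), the matrix gene CCDC80 (−6.30 ± 0.14), the Nogo receptor relative RTN4RL2 (−5.95 ± 1.3) and the metalloproteinase gene ADAMTS20 (−5.79 ± 1.7). In all of these but CCDC80 the 3 BE2C control libraries had 0 counts, so the fitted difference follows from a small added count and bounds nothing. SALL1 had 68, 88 and 54 counts in BE2C with shAhR-2, at least 68.1-fold higher than control (floor of 3 counts over the group), and 16.7, 17.9 and 16.4 CPM in shAhR-2 cells, against 20.4, 18.1 and 21.1 CPM in control cells in Kelly. MIR34AHG had 12, 20 and 8 counts in BE2C with shAhR-2, at least 13-fold higher than control. PHLDB2 and RTN4RL2 had 16 and 12 counts in all there, at least 5.19-fold and 3.89-fold higher. ADAMTS20 had 0, 4 and 0 counts, and without the second BE2C shAhR-2 library its difference was −2.35 with an adjusted p of 1. CCDC80 changed by −2.08 ± 0.097 in Kelly and 4.22 ± 0.098 in BE2C.

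CYP1B1 (−2.73 ± 0.42) was called in opposite directions in the lines. It changed by −1.72 ± 0.21 in Kelly, against 1.02 ± 0.36 in BE2C. Its BE2C counts were low, at 18, 24 and 24 with shAhR-2, against 5, 10 and 14 in control.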

How the results depend on the processing

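Every count of called genes in the 3 comparisons stayed within 1.5 times its value under all alternatives run. Genes that fell with shAhR-2 against control numbered 5454 (mean CPM of at least 1) to 6139 (no filter), and genes that rose 5385 (mean CPM of at least 1) to 6079 (RLE scaling). DESeq2 gave 5819 and 5973, and halved counts 5897 and 5789. The replicate block, whose numbers come only from the titles, gave 6013 and 5856. Leaving out each library in turn gave 5867 to 5933 fallers and 5686 to 5784 risers. Against shAhR-1 the same ranges were 6071 to 6146 lower and 5891 to 5939 higher, and between lines 4661 to 4812 and 4311 to 4406, while other filters turned the balance of the lines (4275 and 4984 with none, 4204 and 4730 at a mean CPM of at least 1). The log2 change of AHR, by which the comparison was chosen, ran from −3.26 to −7.30. The last was without the second shAhR-2 library, where the remaining counts are 0 and the value is no bound. AHR could not be tested with a mean CPM of at least 1 or with only the 6 libraries compared. Of 312 named genes 301 kept their call and direction against control in each of 14 other settings that tested them, though 24, AHR among them, were left untested by at least 1. SALL1, BMPR1B, MAML2, MT-ND4L, MT-ND4, H2BC9, S100A4, COL1A1, FOXD3, CD14 and KRT19 lost a call under at least 1, and the cause was not tested. The median of all genes tested moved only between −0.009 and 0.017. The AhR target median, over 16 genes with mostly low counts, ran from −0.604 to −0.111, and the interferon median from −0.146 to 0.48. The iron median turned from 0.169 to −0.043 with no filter, and the oncofetal median from −0.024 to 0.1 without the third shAhR-2 library. Over all lists and settings 57 counts or medians moved (counts beyond 1.5 times, medians by at least 0.1), and 1580 did not.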

Other observations

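Genes named as proteasome subunits (symbols PSMA, PSMB, PSMC or PSMD with a number) mostly fell with shAhR-2 in Kelly cells. They were taken by symbol alone and looked at after their values were seen. Of 35 tested 32 fell and 1 rose, with a median of −0.655, where 38.2% of all genes fell and 37.2% rose. PSMB2, a beta subunit of the core particle, had 22.3, 23 and 22.5 CPM in shAhR-2 cells, against 218, 207 and 204 CPM in control cells, a log2 change of −3.21 ± 0.038, and the next lowest subunit had −1.31. With shAhR-1 the median was −0.277 and PSMB2 had −0.31. With shAhR-2 in BE2C PSMB2 had −2.69, and the difference between the lines, Kelly minus BE2C, was −0.52 and was called.

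Imprinted genes, also chosen after their values were seen, did not all move together on the DLK1 locus. RTL1 had −3.85 ± 0.042 and DLK1 −2.13 ± 0.03. MEG8 fell at a low level, with groups that overlapped (−1.06 ± 0.46; 0.326 CPM in shAhR-2 cells and 0.674 CPM in control cells). The non-coding MEG3 was not called (−0.03 ± 0.26) and DIO3, which encodes a thyroid hormone deiodinase, rose (1.04 ± 0.26). Both were low, with MEG3 at 1.57 CPM in shAhR-2 cells and 1.6 CPM in control cells, and DIO3 at 2.32 and 1.125 CPM. IGF2 (−1.61 ± 0.038) and GRB10 (−1.35 ± 0.037), a growth factor and a signalling adaptor, fell. PEG10 (0.23 ± 0.026) and PEG3 (0.57 ± 0.089) rose. CDKN1C (1.13 ± 0.39), the gene of a cyclin-dependent kinase inhibitor, rose at a low level (1.24 CPM in shAhR-2 cells and 0.56 CPM in control cells). MEST (−0.02 ± 0.043) and MEG9 (−0.40 ± 0.59) were not called. H19 was too low to test, with 0, 0 and 0 counts in shAhR-2 cells, against 7, 8 and 12 counts in control cells.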
